A study of Mus musculus with 8 samples.

Results

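Noncoding genes that carry small nucleolar RNAs (snoRNAs) in their introns, namely Gas5, Snhg1, Snhg3, Snhg5, Snhg6, Snhg8 and Snhg12, were followed in mouse thoracic aorta with and without the mTORC1 inhibitor gene Tsc1 in smooth muscle. They were taken by name as spliced host RNAs whose first bases are known as a pyrimidine tract, and all 7 have a row among the 23993 gene symbols of the expression table. The tested animals were Tsc1-/- (Tsc1 fl/fl with Myh11-CreERT2 and the mT/mG reporter, called knockout here, n = 4 libraries). The controls were Tsc1+/+ with the same Myh11-CreERT2 and mT/mG (n = 4 libraries). Every animal was a male C57BL/6 mouse given tamoxifen at 1.5 weeks and examined at 24 weeks, so Cre, reporter and tamoxifen were common to both groups. Myh11-CreERT2 is a tamoxifen-inducible recombinase made in smooth muscle, and the RNA came from whole frozen aortas, so cells that never made Cre contributed to it. The sample titles nevertheless call the material thoracic aorta SMCs (smooth muscle cells). The libraries are polyA-selected bulk RNA-seq, given as FPKM (fragments counted on a gene, divided by transcript length and by the library's mapped fragments). The labels number the libraries 1 to 4 in each genotype but do not state that each is a separate animal, and the spread that the p-values rest on may be that of libraries alone.

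A snoRNA host gene is transcribed and spliced like an mRNA, and the snoRNAs are cut from its introns and guide the modification and processing of ribosomal RNA. Box C/D snoRNAs (Snord names) guide ribose methylation and box H/ACA snoRNAs (Snora names) guide pseudouridylation. PolyA-selected libraries count the spliced exons that remain, and also polyadenylated forms that keep an intron. In the annotation the snoRNA loci of Gas5, Snhg1, Snhg5, Snhg8 and Snhg12 lie inside an exon of some transcript. Those of Snhg3 and Snhg6 lie outside every exon. Values per gene cannot tell such forms apart. The set was named for spliced RNAs known to begin, like the mRNAs of ribosomal proteins, with a terminal oligopyrimidine (TOP) tract. The annotated starts given next show its textbook form, defined there, only in Gas5 and Snhg8. Through such a tract mTORC1 is known to raise translation. Because the reading frames of host RNAs are short, translation exposes the spliced RNA to nonsense-mediated decay (NMD).

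The annotated starts of 6 of the 7 genes are in RefSeq (GRCm38.p6), and they are shown because the tract is what the set was named for. Each line gives 40 bases before and 40 from the start on, read in the direction of transcription, and the capitals mark the longest run of C and T that begins between position -5 and position 10, counting the start as 1.
Gas5: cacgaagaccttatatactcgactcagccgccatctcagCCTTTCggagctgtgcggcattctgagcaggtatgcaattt
Snhg1: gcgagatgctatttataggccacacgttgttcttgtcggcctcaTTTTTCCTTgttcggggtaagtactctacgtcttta
Snhg3: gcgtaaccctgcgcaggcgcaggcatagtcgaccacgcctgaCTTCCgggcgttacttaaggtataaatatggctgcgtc
Snhg5: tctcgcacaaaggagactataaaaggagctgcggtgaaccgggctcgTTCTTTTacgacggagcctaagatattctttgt
Snhg8: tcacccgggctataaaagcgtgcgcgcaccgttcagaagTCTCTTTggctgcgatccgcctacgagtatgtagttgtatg
Snhg12: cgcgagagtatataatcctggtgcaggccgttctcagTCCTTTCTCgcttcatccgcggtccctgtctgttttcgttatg

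These windows are chr1:161035126-161035205 on the plus strand for Gas5, chr19:8723447-8723526 on the plus strand for Snhg1, chr4:132353647-132353726 on the minus strand for Snhg3, chr9:88522858-88522937 on the minus strand for Snhg5, chr3:123508297-123508376 on the minus strand for Snhg8 and chr4:132308638-132308717 on the plus strand for Snhg12. Snhg6 is named only. The run was 9 bases in Snhg1 and in Snhg12, 7 in Snhg5 and in Snhg8, 6 in Gas5 and 5 in Snhg3. The median over all 32851 entries was 3 bases. A run at least as long as 9 bases was found in 4.28% of all entries, 7 bases in 10.04%, 6 bases in 16.1% and 5 bases in 28.4%. A C at the annotated start followed by at least 4 pyrimidines, the textbook form of a TOP tract, was present in Gas5 and Snhg8. The same form was found in 2.51% of all entries and in 20.6% of the 68 entries of ribosomal protein genes. Annotated starts can lie some bases from the starts used in a tissue, and the runs in Snhg1, Snhg3 and Snhg5 begin at positions 5, 3 and 8. A second Gas5 entry starts upstream, at position 161034601 of chromosome 1, and its longest run is 3 bases. That entry starts with G and lacks the textbook form. The Gas5 entry shown was chosen for its longer run, whereas the shares are over all entries.

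The target gene was read first. Tsc1 had 2.99, 3.58, 3.37 and 3.71 FPKM in knockout libraries 1 to 4, against 4.03, 4.82, 4.95 and 6.32 FPKM in control libraries 1 to 4. Every knockout value was below every control value, with a log2 difference of -0.44 (SE 0.12) and an adjusted p of 0.0190 (limma). The number of genes at 1 FPKM or more was 11867 to 12083 per library. Relative depth was estimated from the most common FPKM ratio between control 1 and each library among rows under 0.3 FPKM. The estimate ran from 0.758 to 2.43 with control 1 at 1. It is rough, because only 8.80% to 18.6% of those rows lay at the most common ratio. Rows of small RNAs held 929 to 1607 FPKM in each knockout library, against 269215, 448013, 103215 and 1681 FPKM in control libraries 1 to 4, so controls 1 to 3 stood apart in their column sums. Leaving those rows out, columns summed to 451957 to 466774 FPKM in knockouts and 481934 to 490049 FPKM in controls, which do not overlap, and values were compared as deposited. The first principal component (44.8% of the variance) separated the genotypes, and the second (16.6%) separated libraries numbered 1 and 3 from those numbered 2 and 4 in both genotypes. The labels name no batch for that split.

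In knockout aortas 5 of the 7 host RNAs were called lower, by 0.35 to 0.65 on the log2 scale, and none was called higher. The 5 were Snhg12, Snhg8, Snhg5, Snhg1 and Gas5, and in each of them every knockout library was below every control library. Among all 12107 genes tested (mean of at least 1 FPKM), 15.0% were called lower, 17.1% were called higher and 32.2% were called in either direction at an adjusted p under 0.05. Every knockout value was below every control value in 15.6% of all tested genes. The median log2 difference was -0.38 over the 7 host RNAs and 0.01 over all tested genes. Snhg3 and Snhg6 were not called in either direction. All 7 passed the filter on low values.

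**Figure D1:**
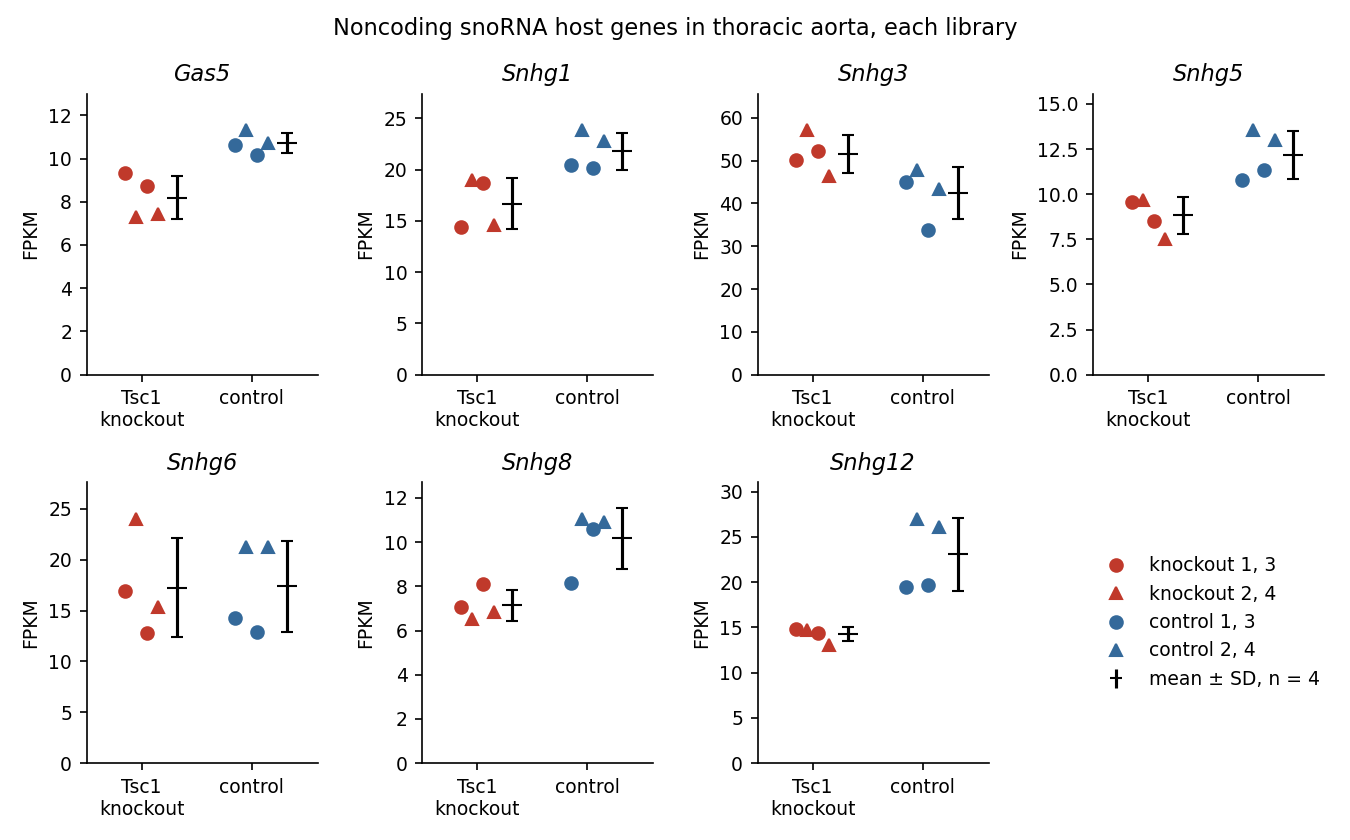
FPKM of each host gene (vertical axes, from 0) in the 4 knockout libraries (red) and the 4 control libraries (blue), with circles for numbers 1 and 3, triangles for numbers 2 and 4, and a black bar for mean ± SD. For Gas5, Snhg1, Snhg5, Snhg8 and Snhg12 all red points lie below all blue points, while for Snhg3 and Snhg6 the groups overlap.

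Gas5 and Snhg1, both known as hosts of box C/D snoRNAs, carry the most snoRNA loci of the set. Gas5 (growth arrest-specific, a long noncoding RNA named for its accumulation in growth-arrested cells) spans 161034422 to 161038539 on the plus strand of chromosome 1 in the GENCODE M21 annotation and holds 9 loci annotated as snoRNAs. It had 9.33, 7.29, 8.74 and 7.42 FPKM in knockout libraries 1 to 4, against 10.6, 11.3, 10.2 and 10.7 FPKM in control libraries 1 to 4. The controls lay close together and the knockouts were all lower, with numbers 2 and 4 the lowest. The means were 8.20 ± 1.002 FPKM in knockouts and 10.7 ± 0.463 FPKM in controls (SD, n = 4 each). The log2 difference was -0.35 (SE 0.08, adjusted p = 0.0115, limma).

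Snhg1 (chromosome 19, 8723475 to 8726443, plus strand, 8 snoRNA loci) includes Snord22, the U22 RNA needed for processing of small-subunit ribosomal RNA. Snhg1 had 14.4, 19.0, 18.7 and 14.6 FPKM in knockout libraries 1 to 4. Control libraries 1 to 4 had 20.4, 23.9, 20.2 and 22.8 FPKM. Knockouts 2 and 3 came near the lowest controls, but the groups did not overlap. The means were 16.7 ± 2.48 FPKM in knockouts and 21.8 ± 1.79 FPKM in controls (SD, n = 4 each). The log2 difference was -0.38 (SE 0.11, adjusted p = 0.0255, limma). That call rested on single libraries: without knockout 1, knockout 4, control 2 or control 4 the difference was -0.31, -0.32, -0.33 and -0.35, with adjusted p of 0.0610, 0.0647, 0.0696 and 0.0613.

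Snhg5 (chromosome 9, 88521050 to 88522929, minus strand) hosts the box C/D pair Snord50a and Snord50b. It had 9.59, 9.67, 8.53 and 7.49 FPKM in knockout libraries 1 to 4, against 10.8, 13.5, 11.3 and 13.0 FPKM in control libraries 1 to 4. The groups did not overlap, and controls 2 and 4 were the highest. Its means were 8.82 ± 1.03 FPKM in knockouts and 12.2 ± 1.32 FPKM in controls (SD, n = 4 each), a log2 difference of -0.42 (SE 0.10, adjusted p = 0.0115, limma).

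Snhg6 (chromosome 1, 9941959 to 9944118, minus strand) hosts the box C/D snoRNA Snord87. It had 16.9, 24.0, 12.8 and 15.3 FPKM in knockout libraries 1 to 4, against 14.3, 21.3, 12.9 and 21.3 FPKM in control libraries 1 to 4. The groups overlapped across nearly their whole range, and number 3 was the lowest library in each genotype. The means were 17.3 ± 4.83 FPKM in knockouts and 17.4 ± 4.47 FPKM in controls (SD, n = 4 each). The log2 difference was -0.01 (SE 0.21, 95% interval -0.50 to 0.47, adjusted p = 0.965, limma), an interval that includes differences of the size measured for Gas5, Snhg1, Snhg5 and Snhg8. In that fit the spread of Snhg6 within a genotype was therefore too wide to show a change of that size. Part of the spread followed library number. Odd libraries averaged 14.8 FPKM and even libraries 19.7 FPKM in knockouts, against 13.6 and 21.3 FPKM in controls. With odd or even number as a term Snhg6 was still not called (adjusted p = 0.944, limma).

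Snhg8 and Snhg3 host only box H/ACA snoRNAs in the annotation. Snhg8 fell, and Snhg3 did not pass the test in either direction. Snhg8 (chromosome 3, 123507552 to 123508404, minus strand) holds Snora24. It had 7.05, 6.54, 8.11 and 6.84 FPKM in knockout libraries 1 to 4, against 8.13, 11.1, 10.6 and 10.9 FPKM in control libraries 1 to 4. Control 1 stood well below the other controls and only just above knockout 3, so the groups were separate by a narrow margin. The means were 7.14 ± 0.682 FPKM in knockouts and 10.2 ± 1.37 FPKM in controls (SD, n = 4 each), a log2 difference of -0.45 (SE 0.10, adjusted p = 0.0104, limma).

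Snhg3 (chromosome 4, 132348014 to 132353686, minus strand) holds Snora73a and Snora73b, copies of the U17 RNA, which acts in the cleavage of ribosomal RNA precursors rather than as a modification guide. It had 50.1, 57.1, 52.3 and 46.5 FPKM in knockout libraries 1 to 4, against 45.0, 47.8, 33.9 and 43.3 FPKM in control libraries 1 to 4. Knockout 4 lay below control 2, so the groups overlapped, although 3 of 4 knockouts were above every control. The means were 51.5 ± 4.43 FPKM in knockouts and 42.5 ± 6.02 FPKM in controls (SD, n = 4 each), with a log2 difference of 0.28 (SE 0.11, 95% interval 0.03 to 0.53, adjusted p = 0.0817, limma), which did not pass the threshold. With the columns scaled to equal sums without small RNA rows, Snhg3 was called higher, at 0.36 (adjusted p = 0.0301, limma).

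Snhg12 (chromosome 4, 132308623 to 132311024, plus strand) holds both kinds, with Snora16a, Snora44, Snora61 and Snord99. It had 14.8, 14.7, 14.4 and 13.1 FPKM in knockout libraries 1 to 4, against 19.4, 27.0, 19.7 and 26.1 FPKM in control libraries 1 to 4. The knockouts were nearly level, and the controls fell into a lower pair (numbers 1 and 3) and a higher pair (numbers 2 and 4), both above every knockout. The means were 14.2 ± 0.785 FPKM in knockouts and 23.1 ± 4.03 FPKM in controls (SD, n = 4 each). The log2 difference of -0.65 (SE 0.11, adjusted p = 0.00310, limma) was the most negative of the 7.

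Per length, Snhg3 was the most abundant host RNA in every library. In knockouts the order of mean FPKM was Snhg3, Snhg6, Snhg1, Snhg12, Snhg5, Gas5 and Snhg8, and in controls it was Snhg3, Snhg12, Snhg1, Snhg6, Snhg5, Gas5 and Snhg8. Neighbours in that order had overlapping ranges except Snhg3 above Snhg6 and Snhg12 above Snhg5 in knockouts, and Snhg3 above Snhg12 in controls. The FPKM of the 7 summed to 111 to 138 in knockout libraries and to 119 to 156 in control libraries, which overlap. Snhg3 made up 41.0% to 42.3% of that sum in knockouts and 28.5% to 35.0% in controls. The ranges of that share did not overlap, but the share depends on the fall of other host RNAs as well as on Snhg3. Snhg3 and Snhg12 had the most positive and the most negative log2 difference of the 7, so their ratio was bound to differ between the genotypes. As a description only, Snhg3 FPKM divided by Snhg12 FPKM was 3.39 to 3.88 in knockouts and 1.66 to 2.31 in controls.

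The mRNAs of ribosomal proteins are known for TOP tracts, and those transcripts fell in knockout aortas. Of 79, 75 were called lower and none higher, with a median log2 difference of -0.52. Summed over the 79 genes, FPKM ran from 38268 to 44221 in knockouts and from 58917 to 61427 in controls. Rpl36 (-0.86) and Rpl13a (-0.71), both proteins of the large subunit, were among those with the most negative differences. The 4 that were not called were Rpl26, Rpl30, Rpl34 and Rps27 (named after their values were seen). Many ribosomal protein genes have processed pseudogenes, and reads shared with these make single values less certain.

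Each host RNA was then compared with that group by subtracting, in each library, the mean log2(FPKM + 1) of the 79 ribosomal protein genes. This mean was 8.66 ± 0.0855 in knockouts and 9.18 ± 0.0340 in controls (SD, n = 4 each), a shift of -0.52. On this relative scale 2 of the 7 host RNAs, Snhg3 and Snhg6, were called higher and none lower, while of all tested genes 81.2% were called in either direction, 78.9% higher and 2.32% lower. Snhg3 differed by 0.80 relative to the ribosomal protein mean (95% interval 0.56 to 1.04, adjusted p = 1.32e-04, limma). Snhg6 differed by 0.50 (95% interval 0.06 to 0.95, adjusted p = 0.0390, limma). That call was lost without knockout 1, 2 or 4 or control 1 or 3, where the difference ran from 0.37 to 0.51. It was kept with odd or even number as a term (adjusted p = 0.00274, limma) and with a replicate block (adjusted p = 0.00360, limma).

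For the other 5 the relative difference was not distinguishable from 0. It was 0.16 for Gas5 (95% interval -0.05 to 0.37), 0.14 for Snhg1 (-0.09 to 0.37), 0.10 for Snhg5 (-0.10 to 0.29), 0.07 for Snhg8 (-0.19 to 0.32) and -0.13 for Snhg12 (-0.39 to 0.13). The intervals reach as far as 0.37 above 0 (Gas5 and Snhg1) and to -0.39 (Snhg12), so a shift within them cannot be told from none. Without knockout 2, Gas5 was called higher on this scale, at 0.24 (adjusted p = 0.0171, limma). Quantile normalization moved the relative differences of Gas5, Snhg1, Snhg5 and Snhg8 to negative values between -0.21 and -0.11, none of them called, and Snhg12 was then called lower at -0.39 (adjusted p = 0.00788, limma).

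**Figure D2:**
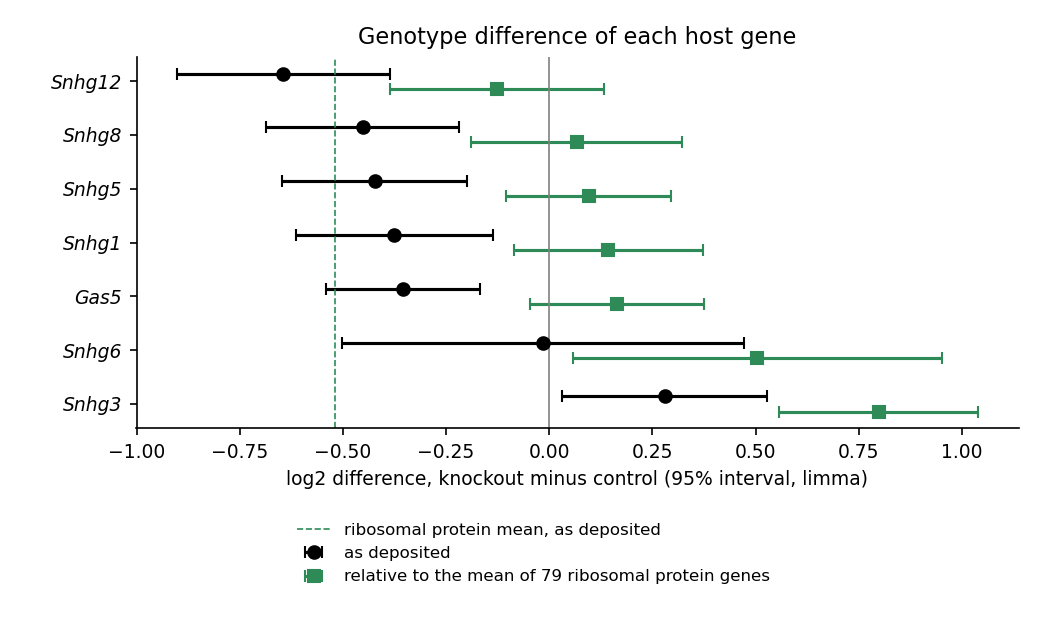
Log2 difference, knockout minus control, with 95% intervals (horizontal axis) for each host gene (vertical axis), as deposited (black circles) and relative to the mean of the ribosomal protein genes (green squares); the dashed line is the shift of that mean. Black points of 5 genes lie between -0.65 and -0.35 and their green intervals span 0, while both points of Snhg3 lie to the right of 0.

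Other genes listed as carrying snoRNAs were read by class. Of 14 other noncoding hosts tested, 4 were called lower and 1 higher, with a median log2 difference of -0.11. That is 35.7% called in either direction, near the 32.2% of all tested genes. The 4 were 2410006H16Rik (25.3 ± 3.34 FPKM in knockouts and 45.6 ± 7.98 FPKM in controls, -0.82), Zfas1 (11.2 ± 1.57 FPKM in knockouts and 17.1 ± 2.78 FPKM in controls, -0.56), Snhg16 (2.80 ± 0.397 FPKM in knockouts and 4.53 ± 0.776 FPKM in controls, -0.54) and Epb41l4aos (11.9 ± 2.81 FPKM in knockouts and 16.6 ± 1.97 FPKM in controls, -0.47, with overlapping groups). Zfas1 is known as a host of box C/D snoRNAs. The call for Epb41l4aos was lost without knockout 2, 3 or 4 or control 2 or 4, where the difference ran from -0.45 to -0.41. Scaling the columns to equal sums without small RNA rows also removed that call (-0.40). Snhg4 rose, with 7.01, 6.90, 6.41 and 7.47 FPKM in knockout libraries 1 to 4, against 4.13, 4.42, 4.03 and 4.61 FPKM in control libraries 1 to 4 (log2 difference 0.59, adjusted p = 3.86e-04, limma). Its groups were far apart relative to their spread. Snhg11 did not pass the filter on low values, and Snhg14 was left out because no single row could be matched to it.

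Protein-coding hosts split by what they encode. Of 27 that belong to the translation machinery, 24 were called lower and 1 higher, with a median of -0.49; 20 of the 27 are ribosomal protein genes, of which 19 were lower. Rpl13a (-0.71), Rps20 (-0.66) and Rps12 (-0.65) had the most negative differences among these hosts. The gene called higher was Eif4a1, the RNA helicase of translation initiation (named after its value was seen). Of 19 protein-coding hosts outside that machinery, 2 were called lower and 1 higher, with a median of -0.09. These were Ddx39b, an mRNA export helicase (-0.42), Rabggtb, a subunit of the enzyme that prenylates Rab GTPases (-0.22), and Hspa9, the mitochondrial chaperone mortalin (0.37). The call for Rabggtb was lost without knockout 1, 2 or 3 or control 1 or 2, where the difference ran from -0.22 to -0.19. Scaling the columns to equal sums without small RNA rows also removed that call (-0.15).

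Few of the genes that act on host RNAs or on their products were called. Of 19 genes for the core proteins and assembly factors of snoRNPs, none was called by limma, and none had an unadjusted p under 0.05, with a median of -0.03. Of 22 NMD factors, 3 were called lower and none higher (median -0.07). Among the 3 were Smg6, the NMD endonuclease (12.7 ± 0.908 FPKM in knockouts and 17.5 ± 1.75 FPKM in controls, -0.43), and Upf2, which joins Upf1 to the exon junction complex (-0.37). Of 18 genes for TOP mRNA binding or translation control by mTORC1, 3 were called lower and none higher (median -0.07). They were Cnbp, a zinc finger protein that binds TOP mRNAs (-0.28), Rheb, the GTPase that activates mTORC1 (-0.28), and Eif4ebp1, a translation repressor and mTORC1 substrate (-0.25). Single libraries decided some of these calls: that for Cnbp was lost without knockout 1 or 3 or control 1, 3 or 4 (-0.28 to -0.23), and that for Eif4ebp1 without knockout 1, 3 or 4 or control 2, 3 or 4 (-0.28 to -0.20). Tsc2, whose product tuberin is the partner of hamartin, the Tsc1 product, was also called lower, at -0.26 (adjusted p = 0.0214, limma). At -0.23 without knockout 4 it was not (adjusted p = 0.0539, limma). With the columns scaled to equal sums without small RNA rows, the calls for Cnbp (-0.20), Eif4ebp1 (-0.17) and Tsc2 (-0.18) were lost as well.

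**Figure D3:**
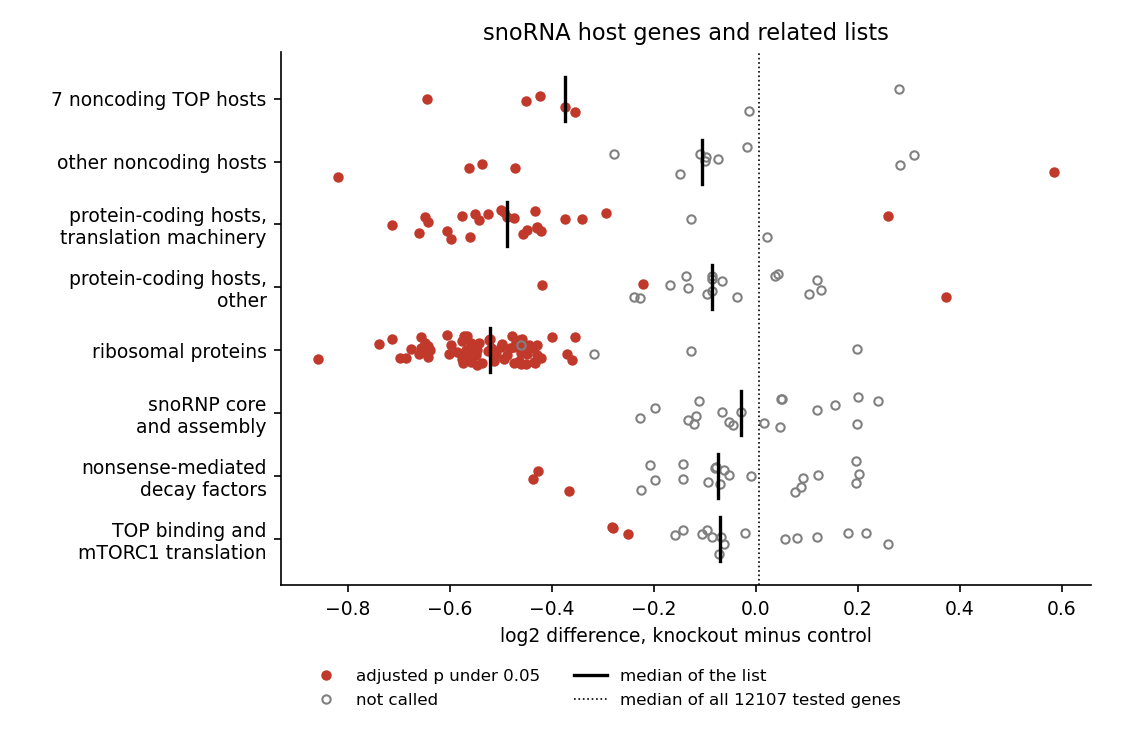
Log2 difference, knockout minus control (horizontal axis), of every tested gene in each list (rows), filled red where the adjusted p was under 0.05, with the list's median as a bar; the dotted line is the median of all tested genes. The host genes of the set have a median of -0.38, the ribosomal protein genes -0.52 and the snoRNP proteins -0.03.

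The snoRNAs themselves were scarcely seen. Of 27 snoRNA loci inside the 7 genes, 8 have a row, and 5 of these (Snord47, Snord87, Snora24, Snora61 and Snord99) are listed at 0 in all 8 libraries. Snord22, within Snhg1, is listed at 0, 0, 6.90 and 0 FPKM in knockout libraries 1 to 4, against 7.69, 21.2, 3.21 and 22.8 FPKM in control libraries 1 to 4. Snora44, within Snhg12, is above 0 only in knockout 3 (9.76 FPKM) and control 4 (10.7 FPKM), and Snora16a only in control 1 (5.52 FPKM). PolyA selection removes mature snoRNAs, and FPKM of so short a feature can come from few fragments, so these values are no measure of snoRNA abundance. They are given without a test.

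Neighbouring genes were examined because host RNAs share loci with other transcripts. None of the 8 nearest genes described here was called over all 8 libraries. Slc3a2, the amino acid transporter heavy chain 117 bases from Snhg1, had a log2 difference of -0.11 (27.1 ± 2.06 FPKM in knockouts and 29.4 ± 2.91 FPKM in controls). Trnau1ap, 738 bases from Snhg12, had -0.10. Zbtb37 (-0.14) and Wdr74 (0.06) were not called, and Phactr4, Syncrip and Prss12 had differences of 0.00, -0.01 and -0.09, whose sign changed under some of the settings tried. In even-numbered libraries alone Prss12 was called lower, at -0.51 (adjusted p = 0.0238, limma). Rcc1, which shares 5592 bases on the same strand with Snhg3 in GENCODE M21, had 3.46 ± 0.679 FPKM in knockouts and 3.40 ± 0.174 FPKM in controls (0.01, adjusted p = 0.969, limma), also with a sign that changed. Zbtb37 overlaps the antisense side of Gas5 by 428 bases and Mcmdc2 that of Snhg6 by 127 bases, and the strand setting of the counting is not given in the sources used here, so reads there cannot be assigned with certainty.

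**Figure D4:**
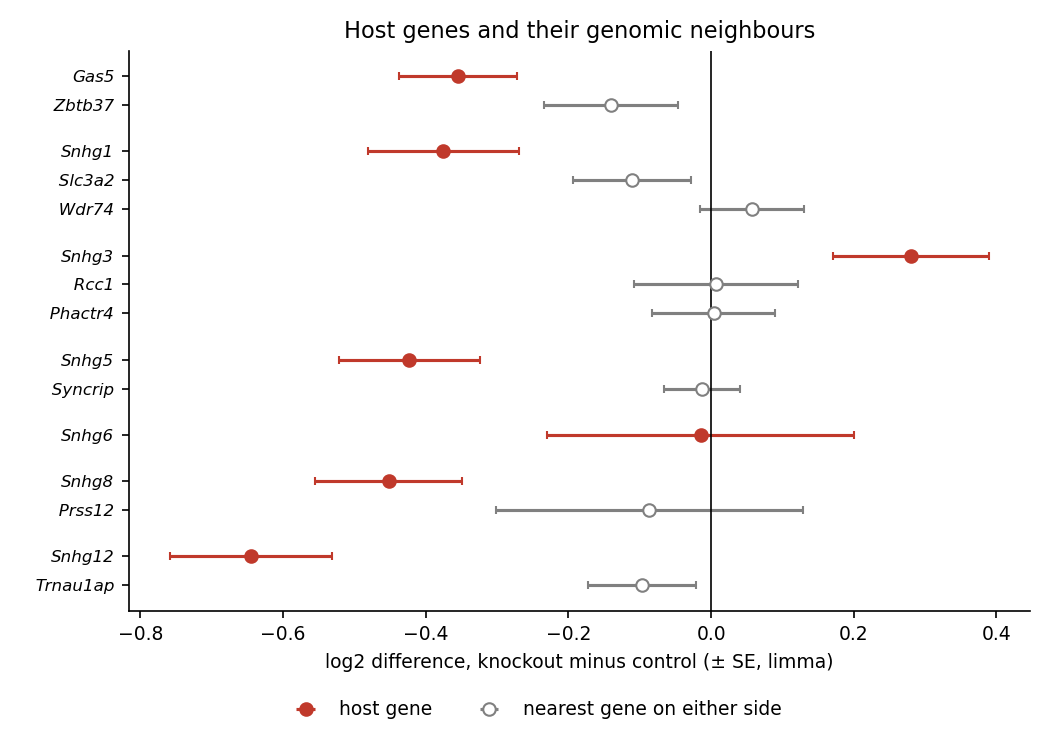
Log2 difference, knockout minus control, ± SE (horizontal axis), of each host gene (filled red) and of the 8 nearest genes described here (open grey), grouped by host. Each of these neighbours lies between -0.14 and 0.06, while 5 of the hosts lie between -0.65 and -0.35.

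The host RNAs were also compared between genotypes in even and odd libraries separately. Among libraries 2 and 4 of each genotype, 4 of the 7 (Gas5, Snhg5, Snhg8 and Snhg12) were called, all lower, and among libraries 1 and 3 only Snhg12 was called, also lower. Of all tested genes, 25.6% were called in either direction in the even libraries (1494 of them lower) and 25.6% in the odd libraries (1453 lower). The log2 difference for Gas5 was -0.52 in even and -0.19 in odd libraries. It was -0.46 in even and -0.29 in odd libraries for Snhg1, where neither passed the test, -0.58 in even and -0.26 in odd libraries for Snhg5, and -0.64 in even and -0.26 in odd libraries for Snhg8. For Snhg12, called in both, it was -0.89 in even and -0.40 in odd libraries. The test of the even difference minus the odd difference (limma interaction, added after seeing the data) gave a value below 0 for all 7, from -0.48 for Snhg12 (adjusted p = 0.0746) to -0.17 for Snhg1 (adjusted p = 0.732), and called none of them; 1.62% of all tested genes were called and 51.4% had a value below 0. With odd or even number as a term in the model, all 5 calls were kept.

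**Figure D5:**
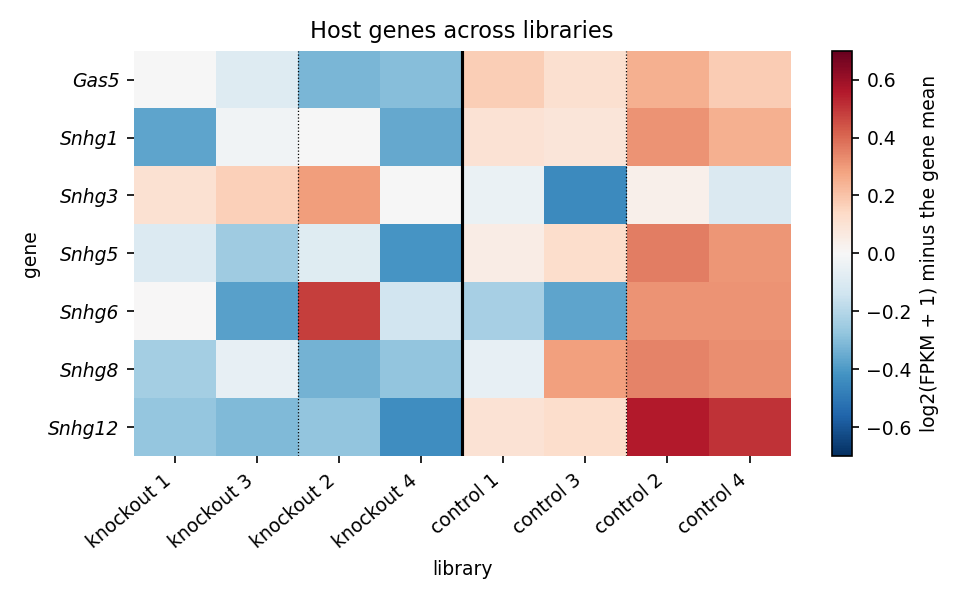
Log2(FPKM + 1) of each host gene minus its own mean over the 8 libraries (colour scale, rows), with knockout libraries left of control libraries and odd numbers before even numbers (columns). The even controls are the highest cells for Snhg12, Snhg5, Snhg1, Snhg8 and Gas5, with an odd control close behind for Snhg8 and Gas5. Snhg3 is highest in knockouts 1 to 3.

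Cell type markers also differed between the genotypes. Contractile smooth muscle markers were called lower in 5 of 8, namely Myh11, Acta2, Tagln, Cnn1 and Des (summed level 11313 to 15127 FPKM in knockouts and 17260 to 17657 FPKM in controls). Endothelial markers were called lower in 7 of 8 (122 to 183 FPKM in knockouts and 233 to 311 FPKM in controls). Adventitial fibroblast markers were called lower in 4 of 8, namely Pi16, Dcn, Serpinf1 and Clec3b (827 to 1183 FPKM in knockouts and 1132 to 1523 FPKM in controls). The fibroblast markers did not all go down: their log2 differences ran from -1.08 to 0.38, with none called higher. Of 9 macrophage markers none was called, nor had any an unadjusted p under 0.05 (limma), and their sum was 182 to 248 FPKM in knockouts and 215 to 303 FPKM in controls. Of the fat cell markers tested (7) and the red blood cell markers tested (4) none was called, with no unadjusted p under 0.05 (limma). Fat cell markers summed to 256 to 586 FPKM in knockouts and 288 to 950 FPKM in controls, and red blood cell markers to 11.3 to 184 FPKM in knockouts and 36.1 to 446 FPKM in controls. Of 5 striated muscle markers tested Tnnt2 was called higher and Ckm lower (summed level 51.5 to 140 FPKM in knockouts and 43.8 to 128 FPKM in controls), and of 8 T, B and NK cell markers 1 passed the filter and was not called (0.635 to 5.50 FPKM in knockouts and 1.13 to 5.93 FPKM in controls). No marker was listed at 0 in every library. In bulk RNA, fewer cells of a type and less RNA per cell cannot be told apart, and the part of these shifts in the host RNA differences was not tested.

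By a fixed measure of likeness, the root mean square difference of centred log2(FPKM + 1) over the 8 libraries, the genes closest to the mean profile of the 7 were Mum1 (0.0444), Rnf167 (0.0452), Bcar1 (0.0536), Gmppa (0.0538) and Dazap1 (0.0573). The median over all tested genes was 0.246. Among the 7 themselves, Snhg5 was nearest to that mean (0.0879) and Snhg3 farthest (0.299). For Gas5 alone the nearest were Gpsm1 (0.0262), Ccdc61 (0.0527), 0610010K14Rik (0.0530), Trim39 (0.0564) and Ubn2 (0.0569), against a median of 0.265. None of these 10 genes is a ribosomal protein gene. The measure counts the size of a difference as well as its pattern, and ribosomal protein genes had a median log2 difference of -0.52. That likeness is a description, and the mean profile of the 7 includes Snhg3, whose log2 difference has the opposite sign to those of the 5 that fell.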

How the data were processed

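Per the submitters' processing notes, TopHat2, Cufflinks, Cuffdiff and build mm10 were used, with no versions or roles. Which annotation and strand setting were used, and whether libraries were scaled, is not given in the sources used here. The authors deposited FPKM, 1 column per library, for 23993 gene symbols. All columns were used. Absolute depth is unknown.

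Values were used as deposited and transformed as log2(FPKM + 1), a scale on which low genes change less than in FPKM. Genes averaging 1 FPKM or more over the 8 libraries (12107) were fitted with limma 3.58.1 in R 4.3.3 (lmFit, eBayes with trend, genotype as the only term, two-sided), checked on simulated data, and a call required an adjusted p (Benjamini-Hochberg) under 0.05. Where no other setting is named, an adjusted p comes from that fit over all 12107 genes. Relative values come from the same fit after subtraction of the ribosomal protein mean. Fits with other scaling or weights, fewer libraries, added terms or the interaction gave their own adjusted p. Differences are knockout minus control.

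The 7 genes, the lists and the choice of named genes were made with earlier results of these data known. The rule for naming took Tsc1, Tsc2, the 7 genes, called noncoding hosts, the 3 called genes of largest difference per list, nearest neighbours in RefSeq and the 5 most alike profiles; some genes that it takes are not reported here. Lists are described by counts and medians, with no set test. Older symbols were matched through RefSeq synonyms (Zfas1, Snhg16 and Epb41l4aos are 1500012F01Rik, 1810032O08Rik and 2410004N09Rik in the table). Gene positions are from GENCODE M21 and start sequences from RefSeq, both on GRCm38, the assembly of mm10. Only the transcribed strand was searched for pyrimidine runs. Alternatives covered pseudocount, filter, scaling, weights, replicate number and left-out libraries.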

Additional observations from a re-analysis of the deposited data

Results flagged for a closer look

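In 4 of 88 groups of 4 libraries checked, 1 library lay far from the rest, and chance alone gives this in about 1 of 20 groups. Among the 14 groups of the 7 host genes there was 1 such case, Snhg8 in controls, where control 1 had 8.131 FPKM and the other controls 10.58 to 11.06 FPKM. The other 3 cases were in genes outside the set. Epb41l4aos (2410004N09Rik in the table), a noncoding host, had 16.02 FPKM in knockout 1 and 10.16 to 10.98 FPKM in the other knockouts. In control 4, Rpl13a had 841.1 FPKM and Rps12 had 1303 FPKM, against 925.5 to 934.2 and 1380 to 1387 FPKM in the other controls.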

How the results depend on the processing

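Across 21 alternative settings Snhg12 remained called lower (-0.89 to -0.40 on the log2 scale), and Snhg3 remained called higher relative to the ribosomal protein mean (0.53 to 0.90). In odd libraries alone 1 host RNA was called lower, and Gas5 (-0.19), Snhg1 (-0.29), Snhg5 (-0.26) and Snhg8 (-0.26) lost their calls; in even libraries alone Snhg1 did (-0.46). These fits use fewer samples. Leaving out 1 library at a time gave -0.44 to -0.31 for Snhg1 and -0.18 to 0.11 for Snhg6. Snhg6 also changed sign with equal column sums (0.0609) and in odd libraries (0.11). With equal sums 1 host RNA, Snhg3, was called higher (0.36), and over all genes 2956 were called higher and 1347 lower, or 68.7% higher, where the values as deposited gave 2074 higher and 1819 lower, or 53.3% higher.

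Relative to the ribosomal protein mean, quantile normalization left 1 host RNA called higher and 1 called lower (Snhg12, -0.39), took Snhg6 below the threshold (0.24) and reversed Gas5 (-0.11), Snhg1 (-0.13), Snhg5 (-0.18) and Snhg8 (-0.21). Library weights gave a call to Gas5 (0.23) and took that of Snhg6 (0.38). Odd libraries alone gave 4 higher calls, with Gas5 at 0.3350 and Snhg5 at 0.26, and reversed Snhg12 (0.12). Even libraries alone gave 1 lower call (Snhg12, -0.37) and reversed Gas5 (-0.0068), Snhg5 (-0.0683) and Snhg8 (-0.12). Leaving out 1 library gave 1 to 2 higher calls, with Gas5 at 0.12 to 0.24, Snhg6 at 0.37 to 0.62 and Snhg8 at -0.0225 to 0.13. The cause of these changes was not tested.

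Among neighbours, Prss12 was called lower in even libraries alone (-0.51), and signs changed for Rcc1 (-0.0044 with median-of-ratios scaling, -0.0113 with quantile normalization, -0.14 in even libraries, -0.0482 to 0.12 without 1 library), Phactr4 (-0.0096 with median-of-ratios scaling, -0.0260 with quantile normalization, -0.0278 in odd libraries, -0.0524 to 0.0552 without 1 library), Syncrip (0.0632 with equal sums, -0.0419 to 0.0069 without 1 library) and Prss12 (0.34 in odd libraries, -0.27 to 0.0602 without 1 library). Of 771 values of the 37 other named genes under these settings, 677 kept direction and side of the threshold, 62 lost a call, 13 gained one and 19 changed sign.

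Libraries with the same number had correlations of deviations of 0.066, 0.138, 0.135 and 0.173, and knockout 1 correlated more with control 3 (0.149), so the numbers were not taken as pairs. A replicate block kept all 5 lower calls among the 7 and gave 2349 genes higher and 2122 lower.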
